A study of Mus musculus with 34 samples.

Results

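H3K4me3 and CTCF were profiled together in 1000 C2C12 cells per staining by multi-target chromatin integration labelling (mtChIL-seq), and the 6 libraries of that experiment are described here. They were taken by name from a deposited count table and are 6 of the 28 libraries that match a sample, out of 34 labelled samples. The H3K4me3 group holds 3 libraries, from cells stained with the mouse monoclonal antibody CMA304, and the CTCF group holds 3 libraries, from a rabbit monoclonal antibody used in the same dual staining. C2C12 is an immortal mouse myoblast line, so all 6 libraries come from 1 line grown without a stated treatment. In this method a DNA probe is brought to each bound antibody, Tn5 transposase inserts it into nearby chromatin, and RNA transcribed from the inserted probe is sequenced. The comparison asks how far the reads of both targets separate when they are read from a single staining of few cells. The labels do not say whether the replicates are separate cultures. The p-values therefore cover no more than the spread among these libraries, which may be technical.

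H3K4me3 is trimethylation of lysine 4 of histone H3, laid down by the SET1 and MLL methyltransferase complexes at active and CpG-rich promoters, often as a broad domain around the transcription start. CTCF is a zinc-finger protein that binds a long DNA motif, mostly away from promoters, where it stops cohesin and so anchors chromatin loops. Both can occur at the same promoter, since some promoters hold a CTCF motif.

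The autosomes and chromosome X held 719766, 1317176 and 1053148 counts in the H3K4me3 libraries and 2074331, 3262830 and 3053854 counts in the CTCF libraries. A 1 kb bin therefore held on average 0.274 to 0.501 H3K4me3 counts and 0.788 to 1.24 CTCF counts. All 3 CTCF libraries were deeper than every H3K4me3 library, so low values are less precise in H3K4me3. Across gene starts, Spearman's rho between H3K4me3 libraries was 0.886 to 0.896, between CTCF libraries 0.841 to 0.867 and between a library of each target 0.750 to 0.795. Over 10 kb windows of the whole genome the order differed: rho was 0.570 to 0.622 between H3K4me3 libraries, 0.777 to 0.815 between CTCF libraries and 0.594 to 0.686 between a library of each target, so that H3K4me3 libraries were no more alike than libraries of different targets. These are descriptions over windows that share their genome and method, at unequal depth.

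The promoters below are shown because they carry the 2 kinds of letters by which starts are compared further on. They come from RefSeq on GRCm38.p6, each from 250 bases before to 50 bases after the start, written on the gene's own strand. In the first 3, capitals mark a 12-letter core of the CTCF motif, which reads CC, any base, C, any base, AG, any 2 bases and GGC. They are starts with more CTCF than H3K4me3 counts, chosen after their values were seen: Cldn1 (a tight junction claudin) at chr16:26371790-26372089 on the minus strand, C1ra (a complement protease with a close paralog, C1rb, so its counts are uncertain) at chr6:124512371-124512670 on the plus strand, and Pear1 (a platelet membrane receptor) at chr3:87768904-87769203 on the minus strand.
Cldn1: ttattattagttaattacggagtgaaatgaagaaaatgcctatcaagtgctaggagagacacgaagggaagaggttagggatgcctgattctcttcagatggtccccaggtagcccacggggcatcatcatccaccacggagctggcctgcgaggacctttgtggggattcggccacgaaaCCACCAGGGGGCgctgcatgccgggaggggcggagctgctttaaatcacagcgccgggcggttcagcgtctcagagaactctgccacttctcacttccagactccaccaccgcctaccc
C1ra: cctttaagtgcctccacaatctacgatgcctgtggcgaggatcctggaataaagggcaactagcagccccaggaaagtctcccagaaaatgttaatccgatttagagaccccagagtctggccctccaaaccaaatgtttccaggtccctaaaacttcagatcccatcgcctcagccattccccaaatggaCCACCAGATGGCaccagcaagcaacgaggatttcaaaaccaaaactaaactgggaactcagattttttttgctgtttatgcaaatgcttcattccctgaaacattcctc
Pear1: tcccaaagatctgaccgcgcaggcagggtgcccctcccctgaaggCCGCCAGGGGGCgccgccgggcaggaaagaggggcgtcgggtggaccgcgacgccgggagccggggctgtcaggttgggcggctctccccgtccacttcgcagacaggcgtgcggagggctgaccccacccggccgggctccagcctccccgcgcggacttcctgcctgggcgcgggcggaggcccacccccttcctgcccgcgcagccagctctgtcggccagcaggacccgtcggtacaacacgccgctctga
The first motif base lies at position -69 from the start in Cldn1, -59 in C1ra and -205 in Pear1. In the other 2, capitals mark every CG: Actg1 at chr11:120348446-120348745 on the minus strand holds 50, and Nop58 at chr1:59684756-59685055 on the plus strand holds 17. They are among the starts with the largest fold change towards H3K4me3.
Actg1: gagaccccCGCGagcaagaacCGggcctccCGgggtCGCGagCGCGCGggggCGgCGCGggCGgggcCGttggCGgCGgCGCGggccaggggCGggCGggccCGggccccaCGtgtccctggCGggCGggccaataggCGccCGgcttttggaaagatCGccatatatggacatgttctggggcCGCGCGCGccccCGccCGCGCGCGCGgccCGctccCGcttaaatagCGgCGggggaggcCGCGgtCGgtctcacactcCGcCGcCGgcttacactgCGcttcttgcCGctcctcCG
Nop58: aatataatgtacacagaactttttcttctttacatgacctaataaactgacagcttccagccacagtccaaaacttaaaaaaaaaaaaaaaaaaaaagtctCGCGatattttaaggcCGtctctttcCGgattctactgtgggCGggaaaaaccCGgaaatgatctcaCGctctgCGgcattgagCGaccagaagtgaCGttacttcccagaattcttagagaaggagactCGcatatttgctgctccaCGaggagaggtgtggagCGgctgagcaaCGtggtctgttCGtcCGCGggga

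Gene starts held 22.3, 21.0 and 21.6% of the H3K4me3 counts, against 6.81, 6.55 and 6.32% of the CTCF counts. The start windows, all bins within 1 kb of a protein-coding gene's start, cover 2.28% of the bins, so the mean share was 9.48 times their share of the bins in H3K4me3 and 2.88 times in CTCF. The groups did not overlap (21.6% ± 0.669 in H3K4me3 and 6.56% ± 0.249 in CTCF, SD, n = 3 each). An exact two-sided permutation test of 3 against 3 libraries gave p = 0.1, the smallest p it can give for unpaired libraries.

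Away from starts the order turned round. Intergenic bins, over 2 kb from every coding gene and start, held 30.7% ± 0.717 of the H3K4me3 counts and 43.0% ± 0.281 of the CTCF counts (SD, n = 3 each). Gene interiors, over 2 kb inside genes of at least 5 kb, held 34.0% ± 0.220 of the H3K4me3 counts and 39.9% ± 0.057 of the CTCF counts. Chromosome X held 2.57% ± 0.127 of the H3K4me3 counts and 2.91% ± 0.081 of the CTCF counts, both below its 6.49% of the bins. The 1% of bins with the most counts in each library held 29.5% ± 1.45 of the H3K4me3 counts and 15.0% ± 0.661 of the CTCF counts. Each of these 4 differences had p = 0.1 by the same exact permutation test, and the groups overlapped in none of them. Thinned to the smallest library, the top 1% of bins held 30.0% of the H3K4me3 counts and 17.3% of the CTCF counts.

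**Figure D1:**
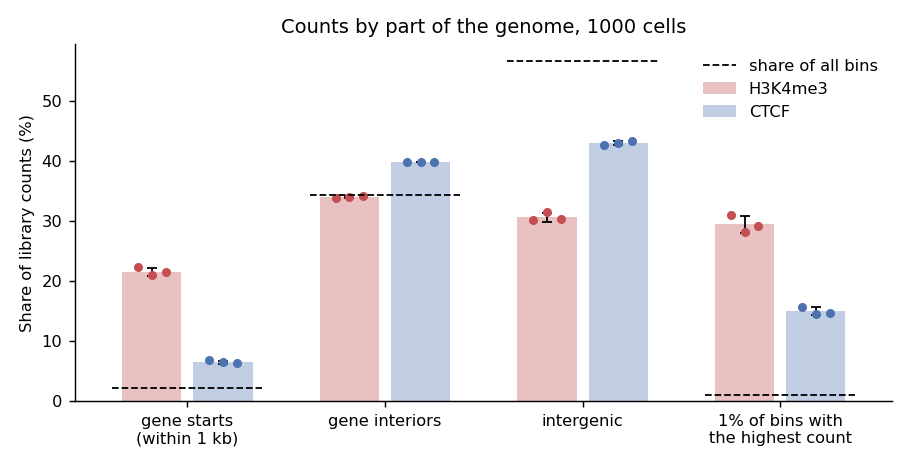
Share of counts (percent, vertical axis) in gene starts, gene interiors, intergenic bins and the highest 1% of bins, for the 3 H3K4me3 and the 3 CTCF libraries of 1000 cells. Points are libraries, bars are means with SD, and a dashed line gives each part's share of all bins; gene starts hold about 21.6% of H3K4me3 and 6.56% of CTCF counts.

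Both targets peaked in the bin that holds the start, with H3K4me3 higher and wider. Averaged over the 17273 genes with a known start, H3K4me3 density in that bin was 13.98 ± 0.61 times the genome mean and CTCF density 3.84 ± 0.22 times (SD, n = 3 each). One kb downstream the H3K4me3 density was 11.32 and the CTCF density 2.41, and 1 kb upstream the H3K4me3 density was 6.04 and the CTCF density 2.49. The H3K4me3 signal was thus skewed towards the gene body, whereas the CTCF values on either side were alike. At 10 kb downstream the densities had come down to 1.74 in H3K4me3 and 1.42 in CTCF.

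Promoter letters separated the starts. CpG-rich starts, here the 8451 with an observed-to-expected CpG ratio above 0.6 over the 300 promoter bases, reached 24.2 ± 1.18 times the genome mean in H3K4me3 and 5.81 ± 0.36 times in CTCF in the start bin (SD, n = 3 each). The 8822 CpG-poor starts reached 4.17 ± 0.07 in H3K4me3 and 1.94 ± 0.08 in CTCF. The 519 starts with the CTCF motif reached 17.9 ± 1.07 in H3K4me3 and 7.44 ± 0.50 in CTCF, so their CTCF density was above that of the CpG-rich starts while their H3K4me3 density was below it.

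**Figure D2:**
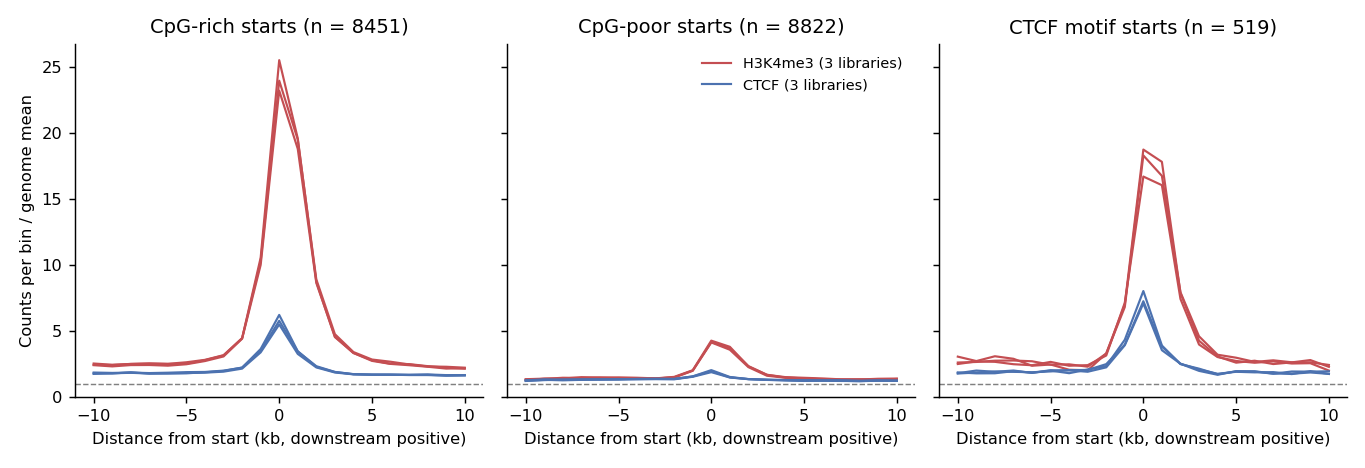
Mean density (counts per 1 kb bin divided by the library's genome mean, vertical axis) against distance from the gene start in kb (horizontal axis, negative upstream) at CpG-rich starts, CpG-poor starts and starts with the CTCF motif. Each line is 1 library, red for H3K4me3 and blue for CTCF, and the dashed line is the genome mean; the mean H3K4me3 peak at CpG-rich starts is 24.2 and the mean CTCF peak at motif starts is 7.44.

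The same shift was seen in shares of start counts. Of the counts at starts that share no bin with another gene, CpG-rich starts took 81.6% ± 0.196 in H3K4me3 and 67.8% ± 0.577 in CTCF (SD, n = 3 each), and they are 44.5% of those starts. Starts with the CTCF motif, 3.02% of the starts, took 4.64% ± 0.051 of the start counts in H3K4me3 and 5.74% ± 0.109 in CTCF. Among CpG-rich starts alone, the motif's share was 4.83% ± 0.035 in H3K4me3 and 6.54% ± 0.121 in CTCF. In CpG-poor starts it was 3.82% ± 0.116 in H3K4me3 and 4.06% ± 0.157 in CTCF, where the nearest libraries of the groups almost met. All 4 differences had p = 0.1 by the exact permutation test, the smallest it can give.

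Bins chosen from other libraries separated the targets further. The 5000 highest bins of the H3K4me3 libraries from 10000 cells and the 5000 highest of the CTCF libraries from a single staining of 10000 cells share 348 bins. In the 4652 bins of the H3K4me3 set alone, density was 59.0, 55.2 and 56.8 times the genome mean in H3K4me3 libraries and 7.89, 7.81 and 7.14 times in CTCF libraries. In the 4652 bins of the CTCF set alone, it was 9.34, 9.38 and 8.95 times in H3K4me3 libraries and 23.2, 22.2 and 22.3 times in CTCF libraries. In the 348 shared bins, H3K4me3 libraries reached 60.3, 57.0 and 57.3 times and CTCF libraries 24.5, 22.8 and 21.4 times. Each target was higher in its own set than in the other's, where it still stood above the genome mean, and in the shared bins each was near its level in its own set. The single-staining CTCF libraries, which chose their set, had 8.17 and 7.89 times in the H3K4me3 bins and 25.6 and 24.2 times in the CTCF bins, but staining and cell number both differ from the dual libraries and cannot be told apart. Each of the 3 differences between targets had p = 0.1 by the exact permutation test on shares.

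**Figure D3:**
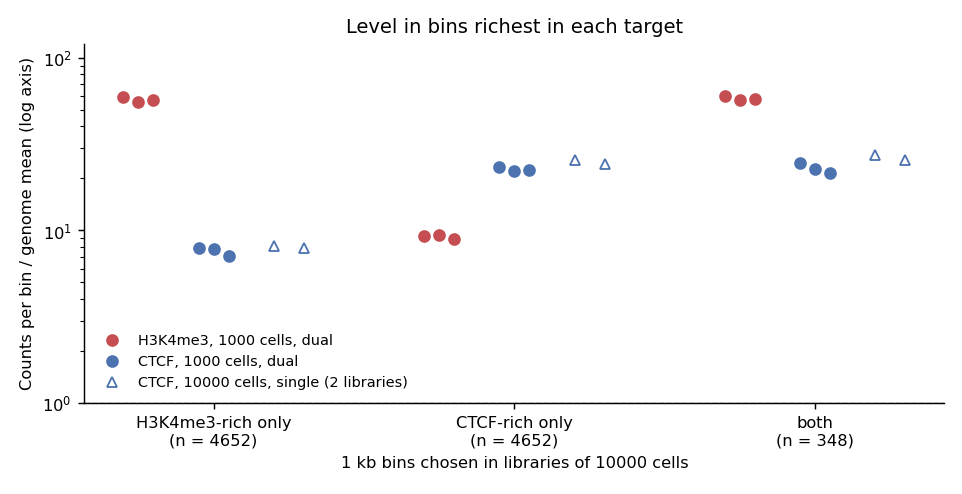
Density in fold of the genome mean (vertical log axis), 1 point per library, in bins high in H3K4me3 only, in CTCF only and in both, as chosen from libraries outside the comparison; triangles are the single-staining CTCF libraries. H3K4me3 libraries lie at 55.2 to 59.0 in the H3K4me3-only bins and 8.95 to 9.38 in the CTCF-only bins; CTCF libraries lie at 7.14 to 7.89 and 22.2 to 23.2.

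Bins with at least 10 times the genome mean, as the mean of the densities of the 3 libraries, numbered 29432 in H3K4me3 and 20169 in CTCF. The libraries were not thinned to equal depth for these counts of bins and runs. Of these, 54.5% in H3K4me3 and 15.9% in CTCF lay at gene starts, while 24.6% in H3K4me3 and 69.6% in CTCF were distal. H3K4me3 bins joined into 13743 runs, of which 45.5% were a single bin, and CTCF bins into 17166 runs, of which 85.4% were. Runs of 5 kb or more numbered 979 in H3K4me3 and 17 in CTCF, with longest runs of 24 kb and 11 kb. The 5798 bins enriched in both were 19.7% of the H3K4me3 bins and 28.7% of the CTCF bins.

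Over gene starts, edgeR's quasi-likelihood test with Benjamini-Hochberg adjustment called 8043 of 8765 tested starts at 0.05 (91.8%). Of the tested starts, 7741 (88.3%) were higher in H3K4me3 and 302 (3.45%) higher in CTCF, and the median log2 fold change, H3K4me3 over CTCF, was 2.15. The libraries of each target did not overlap at 7953 starts (90.7%). These counts are set by scaling to the library total: with TMM factors from the tested starts the median moved by over 2 log2 units to 0.02, with 1835 starts higher in H3K4me3 and 2100 higher in CTCF. With TMM factors from 10 kb windows of the genome the median was 2.36, with 8102 starts higher in H3K4me3 and 245 in CTCF. A start passes the filter on low counts when 3 libraries exceed a minimum, so starts that passed through 1 target alone had to differ. Starts higher in CTCF numbered 709 with no filter, 679 with both gene ends counted together and 699 in windows of 2.5 kb. With no filter, 8959 of 20556 tested starts were called, and the median was 0.76.

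Without gene models, 15155 of 16589 tested 1 kb bins were called (91.4%) by edgeR's quasi-likelihood test at an adjusted p of 0.05. Of these, 11928 (71.9% of those tested) were higher in H3K4me3 and 3227 (19.5%) higher in CTCF. Bins went through the same filter on low counts, so those that passed through 1 target alone had to differ. The shares of bins given here depend on that filter and hold only for the bins tested. At gene starts, 8737 of 9391 bins (93.0%) were higher in H3K4me3 and 166 (1.77%) in CTCF. Among the 4312 distal bins tested 83.3% were called, and 1044 of those tested (24.2%) were higher in H3K4me3 and 2548 (59.1%) in CTCF, with a median log2 fold change of -1.33. The intergenic ones leaned furthest. Of 2199 tested, 81.3% were called, and 312 of those tested (14.2%) were higher in H3K4me3 and 1475 (67.1%) in CTCF, against 732 of 2113 (34.6%) higher in H3K4me3 and 1073 (50.8%) in CTCF, with 85.4% called, in gene interiors. With TMM factors from the tested bins, 4170 bins were higher in H3K4me3 and 5321 in CTCF, and distal bins still leaned to CTCF, with 316 higher in H3K4me3 and 3405 in CTCF. Leaving out 1 H3K4me3 library, which lets more bins pass the filter, gave 7285 to 7972 bins higher in CTCF and 1615 to 1653 distal ones higher in H3K4me3, whereas leaving out 1 CTCF library gave 1931 to 2074 bins higher in CTCF. With a more lenient filter on low counts, 34727 of 243743 tested bins were called, and the median log2 fold change was -0.35 instead of 2.27. Of those called, 21286 were higher in H3K4me3 and 13441 in CTCF, and among distal bins 3144 and 11313.

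**Figure D4:**
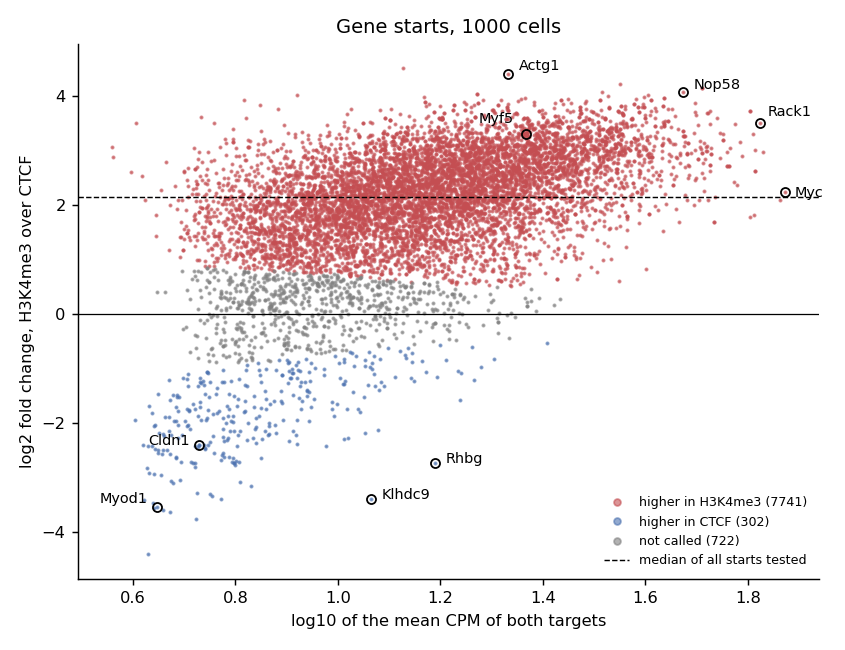
Log2 fold change (H3K4me3 over CTCF, vertical axis) of each tested gene start against the log10 of its mean CPM over both targets (horizontal axis). Each point is 1 gene start, and the dashed line is the median. Starts called higher in H3K4me3 (7741), called higher in CTCF (302) and not called are coloured apart; most lie above 0, with a median of 2.15.

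Among starts that share no bin with another gene and have at least 20 counts in every H3K4me3 library, that of Actg1, which encodes cytoplasmic gamma-actin, led the fold changes. Its window, chr11:120346511-120349510, held 37.5, 44.8 and 40.8 CPM (counts scaled to a library total of 1000000) in H3K4me3 and 1.45, 1.84 and 2.29 CPM in CTCF. The log2 fold change was 4.40 (SE 0.31, edgeR adjusted p = 2.54e-25), and no overlap of the targets was a further condition for these starts. Nop58, a core protein of box C/D snoRNPs, held 100.0, 79.0 and 89.3 CPM in H3K4me3 and 1.93, 6.13 and 6.55 CPM in CTCF over chr1:59683761-59686760 (log2 fold change 4.06, SE 0.21, edgeR adjusted p = 3.37e-34). Rabggtb (a subunit of the Rab prenyltransferase), Lpar6 (a lysophosphatidic acid receptor), Epha2 (an ephrin receptor), Cdk8 (a Mediator kinase) and Usp7 (a deubiquitinase) had log2 fold changes of 3.95 to 4.01. Lpar6 had a CpG ratio of 0.09 and Epha2 of 0.46, so CpG-poor starts were among them.

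By difference in level, Rack1, a scaffold protein of the ribosome, came first, with 153, 104 and 112 CPM in H3K4me3 and 9.64, 11.6 and 10.2 CPM in CTCF. Ptgs2, the inducible cyclooxygenase, held 128, 118 and 115 CPM in H3K4me3 and 10.6, 18.4 and 15.4 CPM in CTCF. Meis1 (a homeobox factor), Lurap1l, Zfp207 (a zinc-finger protein of the spindle) and Znfx1 (a helicase) averaged 101 to 116 CPM in H3K4me3 and 8.19 to 14.5 CPM in CTCF. Myc, placed at the gene end with more H3K27ac counts, held 138, 109 and 122 CPM in H3K4me3 and 36.2, 23.9 and 19.3 CPM in CTCF, a log2 fold change of 2.24 that is close to the median of all starts. LOC102634078 had a similar one of 2.09, which turned to -0.051 with TMM factors from the tested starts.

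By fold change among starts higher in CTCF with over 3 H3K4me3 counts in all, at least 15 in every CTCF library and no shared bin, Klhdc9, a kelch-repeat gene, came first. Its window at chr1:171359306-171362305 held 1.39, 1.52 and 2.85 CPM in H3K4me3 and 22.7, 21.5 and 19.6 CPM in CTCF (log2 fold change -3.40, SE 0.43, edgeR adjusted p = 4.05e-12). Its promoter has a CpG ratio of 0.82. No overlap of the targets was a further condition for these starts. Rhbg, an ammonium transporter, held 4.17, 2.28 and 5.70 CPM in H3K4me3 and 34.2, 24.5 and 21.9 CPM in CTCF, at a gene end chosen by H3K27ac. Pts, an enzyme of tetrahydrobiopterin synthesis with a CpG ratio of 0.85, held 6.95, 3.04 and 2.85 CPM in H3K4me3 and 21.7, 18.4 and 14.7 CPM in CTCF. Btbd16 (-3.15), Ccdc110 (-3.09), the postsynaptic scaffold gene Shank2 (-2.81), the G-protein regulator Rgs3 (-2.77), the collagen VI chain gene Col6a2 (-2.75) and the hair-cell cadherin gene Cdh23 (-2.73) followed by log2 fold change. Shank2 was placed at the gene end with more H3K27ac counts, which can be the downstream end. Krt88, Hsd17b6, Tmem211, Cthrc1 and Rxfp3 completed the largest differences, with 2.66 to 8.75 CPM in H3K4me3 and 16.3 to 25.8 CPM in CTCF on average. Krt88, Tmem211 and Cthrc1 were likewise placed by H3K27ac.

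A further 16 starts higher in CTCF had 1 to 3 H3K4me3 counts over the 3 libraries together and are given as counts. Ror1, a receptor tyrosine kinase, held 3 H3K4me3 counts and 86 CTCF counts, a depth-scaled ratio with a 95% counting interval of 0.019 to 0.286. Slc52a3, a riboflavin transporter gene placed by H3K27ac, held 1 H3K4me3 count and 69 CTCF counts (interval 0.001 to 0.227). Gad1, which makes GABA in neurons, held 2 H3K4me3 counts and 63 CTCF counts (interval 0.010 to 0.325). Abr, with 3 H3K4me3 counts and 66 CTCF counts, depended on its start, since the one with the most H3K27ac gave a log2 fold change of 1.83.

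The CTCF motif was more frequent among the promoters of starts higher in CTCF. Searched on both strands with the letters given above, it stood in 249 of 6439 promoters (3.87%) of starts higher in H3K4me3, in 25 of 170 (14.7%) of those higher in CTCF and in 4.53% of the 7176 tested with a promoter. Of all 32619 promoters it stood in 2.45%. Among CpG-rich starts, 14 of 269 with the motif were higher in CTCF (5.20%), against 54 of 5699 without it (0.948%). Among CpG-poor starts the shares were 19.6% of 56 with it and 7.90% of 1152 without it. Most starts higher in CTCF had no such letters in the window, which says only that they are not there.

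Cldn1, whose promoter is printed above, held 1, 1 and 3 H3K4me3 counts and 23, 31 and 20 CTCF counts (log2 fold change -2.41, SE 0.56, edgeR adjusted p = 4.33e-05). Pear1 held 2, 7 and 1 H3K4me3 counts and 27, 38 and 40 CTCF counts, with a log2 fold change of -1.94. C1ra held 0, 3 and 3 H3K4me3 counts and 18, 25 and 22 CTCF counts, with a log2 fold change of -1.97. No overlap of the targets was among the conditions by which these 3 were chosen.

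Other marks of the same cell line differed between these classes, here the 6439 and 170 starts with a promoter. H3K27ac, an acetylation of active promoters and enhancers, had a median density of 3.57 at starts higher in H3K4me3 and 1.64 at those higher in CTCF, in libraries of 1000 cells from another dual staining. RNA polymerase II phosphorylated at serine 2, the elongating form, had 3.44 at starts higher in H3K4me3 and 1.63 at those higher in CTCF. CpG-rich promoters were 85.5% of the starts higher in H3K4me3 and 40.0% of those higher in CTCF. A window shared with another gene was found for 26.3% of the starts higher in H3K4me3 and 7.06% of those higher in CTCF. Over all 7176 tested starts with a promoter, the median densities were 3.41 for H3K27ac and 3.35 for the polymerase. Of these, 83.2% were CpG-rich and 24.8% had a shared window. The starts higher in H3K4me3 were thus close to all tested starts, and those higher in CTCF stood apart.

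Gene groups were compared by their density at starts, over all placed members, and by counts of called members, to be read against 88.3% higher in H3K4me3 and 3.45% higher in CTCF over all starts. With TMM factors from the tested starts, immediate-early, CTCF and cohesin, contractile, histone and myoblast marker genes, whose medians differed from that of all starts by -0.19, -0.036, -0.17, -0.71 and -0.87 log2 units, had medians below 0, towards CTCF. Splicing factors had the highest H3K4me3 density, 44.1 ± 1.27 times the genome mean, with 5.55 ± 0.45 in CTCF (SD, n = 3 each). All 23 tested members were higher in H3K4me3, and their median log2 fold change lay 1.01 above that of all starts. Hnrnpa2b1, an RNA-binding protein of the spliceosome's hnRNP particles, held 97.3, 73.6 and 74.1 CPM in H3K4me3 and 4.34, 4.90 and 5.89 CPM in CTCF, though its window is shared with another gene. Ribosomal protein genes followed with 41.7 ± 1.29 in H3K4me3 and 5.88 ± 0.55 in CTCF, 31 of 31 higher in H3K4me3 and a median 0.75 above all starts. Rps9 held 52.8, 49.3 and 47.5 CPM in H3K4me3 and 2.89, 3.98 and 2.95 CPM in CTCF.

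Genes of the respiratory chain (24 of 25 higher in H3K4me3), glycolysis (15 of 15), the proteasome (24 of 24) and the cell cycle (22 of 23) had densities of 24.9 to 28.4 in H3K4me3 and of at most 5.16 in CTCF. None of them was higher in CTCF, and their medians lay 0.40 to 0.83 above all starts. Aurka, a mitotic kinase, had a log2 fold change of 3.92, in a window shared with another gene, and Gapdh, a glycolytic enzyme, one of 3.41. Matrix and cytoskeleton genes had 34.6 in H3K4me3 and 7.37 in CTCF, with 18 of 22 higher in H3K4me3 and 2 higher in CTCF. Immediate-early genes, which respond fast to growth signals, had 29.6 in H3K4me3 and 7.44 in CTCF, with 16 of 19 higher in H3K4me3 and 1 higher in CTCF. These last 2 groups had the highest CTCF densities of the lists.

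The genes for the machinery of the marks were, with library-total scaling, higher in H3K4me3 at the starts that could be tested, 15 of 17 placed for the H3K4 enzymes and 12 of 14 placed for CTCF and cohesin. Subunits of the H3K4 methyltransferases and the KDM5 demethylases had 15 of 15 tested starts higher in H3K4me3, led by Kmt2d, a catalytic subunit, with 88.9, 66.8 and 72.2 CPM in H3K4me3 and 5.30, 6.74 and 4.58 CPM in CTCF. Kmt2b, another, had a log2 fold change of 1.08 that turned to -1.05 with TMM factors from the tested starts. CTCF and cohesin genes had 12 of 12 higher in H3K4me3, with densities of 21.1 in H3K4me3 and 5.04 in CTCF, and a median that differed by -0.036 from all starts (0.28 without H3K4me3 replicate 3). Ctcf itself held 20.8, 34.9 and 28.5 CPM in H3K4me3 and 7.23, 7.97 and 5.24 CPM in CTCF (log2 fold change 2.09), and with those TMM factors it came to -0.037. Mau2, a cohesin loader, had a log2 fold change of 3.31, in a window shared with another gene. Stag1, a cohesin subunit, had one of 1.22, which turned to -0.91 with those factors. Of the 12 tested, 6 turned in this way, namely Ctcf, Esco1, Pds5a, Smc3, Stag1 and Stag2. Ash2l, Dpy30, Nipbl and Ctcfl were too low to test in their windows. All but Dpy30 were placed at the gene end with more H3K27ac counts, which can be the downstream end. The window of LOC102634078, named above, lies inside the Nipbl gene. Ctcfl, the germline paralog of Ctcf, held 0, 1 and 1 H3K4me3 counts and 9, 16 and 6 CTCF counts.

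**Figure D5:**
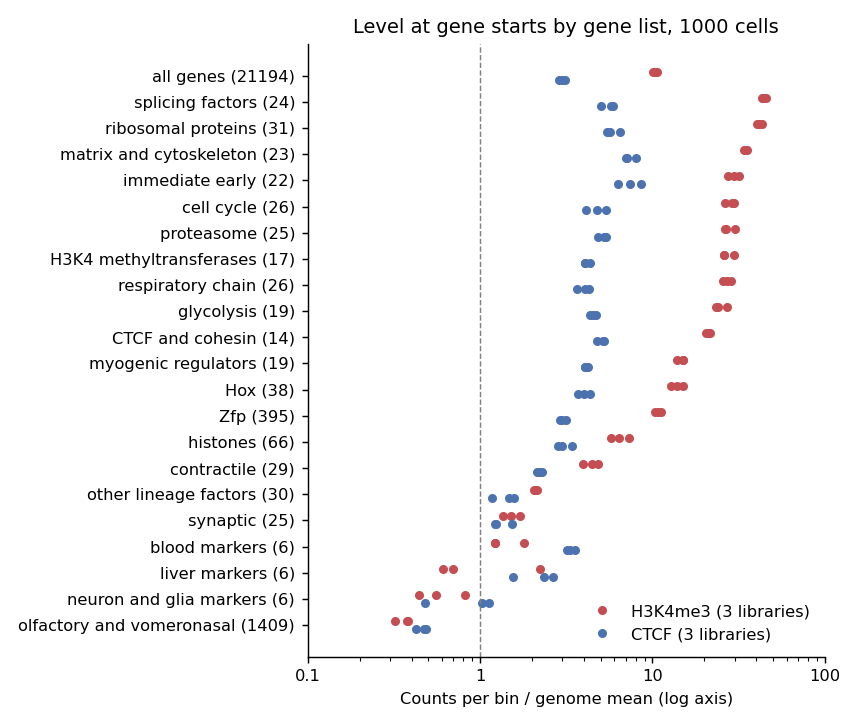
Density at gene starts in fold of the genome mean (horizontal log axis) for all genes and for gene lists (rows, with the number of placed members), with 1 point per library, red for H3K4me3 and blue for CTCF. Splicing factors and ribosomal proteins have the highest H3K4me3 densities, 44.1 and 41.7, while the olfactory and vomeronasal receptors are lowest, at 0.36 in H3K4me3 and 0.46 in CTCF.

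Muscle genes were mixed. Of the myogenic regulators, 10 of 12 tested were higher in H3K4me3 and 2 higher in CTCF. Myf5, a factor that commits cells to muscle, held 38.9, 45.6 and 42.7 CPM in H3K4me3 and 2.89, 3.37 and 6.22 CPM in CTCF (log2 fold change 3.304, SE 0.27, edgeR adjusted p = 3.54e-21), at a promoter with a CpG ratio of 0.16. Id3 and Id1, inhibitors of the myogenic factors, had log2 fold changes of 2.92 and 2.88. Myod1, a defining factor of myoblasts, held 0, 1 and 1 H3K4me3 counts and 19, 28 and 22 CTCF counts. It has no start in the promoter table and was placed by H3K27ac, which can choose the downstream end. Both of its ends together held 0, 3 and 1 H3K4me3 counts and 20, 29 and 24 CTCF counts. Few counts of either target thus lay at the other end. Factors that act in muscle differentiation differed among themselves. Myog held 0, 0 and 1 H3K4me3 counts and 2, 5 and 6 CTCF counts, and Mef2c held 1, 0 and 0 H3K4me3 counts and 0, 0 and 3 CTCF counts. Mef2d held 29, 39 and 36 H3K4me3 counts and 8, 18 and 13 CTCF counts (log2 fold change 2.85), and Mef2a held 6, 15 and 10 H3K4me3 counts and 5, 8 and 6 CTCF counts (2.11, or -0.00057 with TMM factors from the tested starts). Mef2d and Mef2a were both called higher in H3K4me3.

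The myoblast markers thus matched the label in part. Myf5, Itga7 (a laminin-binding integrin, log2 fold change 2.22), Cdh15 (M-cadherin, 2.23), Chrnb1 (1.43) and Des (1.12) were higher in H3K4me3, although with TMM factors from the tested starts Chrnb1 and Des turned to -0.70 and -0.99, and Itga7 and Cdh15 came to 0.080 and 0.10 and lost their calls, so that of these 5 only Myf5 was still called higher in H3K4me3. The call of Chrnb1 was lost without H3K4me3 replicate 3, and that of Des without that library or CTCF replicate 3. Myod1, Megf10 and Chrna1 were higher in CTCF in their windows, Chrna1 not without H3K4me3 replicate 1 or 3 or CTCF replicate 2 or 3. The window of Myod1, chr7:46377816-46380815, can be at the downstream end of the gene, so its value may not describe the promoter. Pax7, with 0 counts in every H3K4me3 library, and Vcam1 were too low to test in their windows. Vcam1 was placed by H3K27ac, and both of its ends together held 14, 36 and 21 H3K4me3 counts and 9, 18 and 11 CTCF counts. Megf10, a receptor of satellite cells, held 12, 21 and 6 H3K4me3 counts and 63, 71 and 72 CTCF counts. Megf10 too was placed by H3K27ac, and both of its ends together held 13, 22 and 8 H3K4me3 counts and 67, 80 and 79 CTCF counts. Contractile genes had low densities, 4.42 in H3K4me3 and 2.20 in CTCF, and only 5 of 29 were tested, of which Tnni2, a fast troponin, was higher in CTCF and Tpm1, Myl4 and Actn3 were among the 4 higher in H3K4me3. With those TMM factors Myl4 came to 0.54 and lost its call, and Actn3 turned to -0.13. The windows of Myl4 and Actn3 share bins with other genes, and Tnni2 and Actn3 were placed by H3K27ac.

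Markers of other cell types had H3K4me3 densities below the 10.3 of all genes. Neuron and glia markers had densities of 0.60 in H3K4me3 and 0.88 in CTCF, endothelial markers 0.70 in H3K4me3 and 0.75 in CTCF, and epithelial markers 1.28 in H3K4me3 and 1.70 in CTCF, and none was tested. Blood markers had 1.41 in H3K4me3 and 3.35 in CTCF, the second above the 2.98 of all genes. Among them Spi1, a myeloid factor, held 3, 1 and 4 H3K4me3 counts and 28, 36 and 37 CTCF counts. Its window was placed by H3K27ac, which can choose the downstream end, and shares bins with another gene. Factors of other lineages had 2.08 in H3K4me3 and 1.41 in CTCF, and 2 of 30 were tested. Both were higher in H3K4me3. Gata3, of T cells and epithelia, held 24, 39 and 35 H3K4me3 counts and 34, 31 and 34 CTCF counts (log2 fold change 1.41, or -0.72 with TMM factors from the tested starts). Nkx2-5, a cardiac factor, held 13, 29 and 25 H3K4me3 counts and 17, 15 and 14 CTCF counts (1.95, or -0.18 with those factors). The liver marker Apob held 0, 6 and 0 H3K4me3 counts and 13, 43 and 30 CTCF counts. Olfactory and vomeronasal receptors, 1409 placed genes, had 0.36 ± 0.03 in H3K4me3 and 0.46 ± 0.03 in CTCF. Protocadherins, neural adhesion genes, had 1.70 in H3K4me3 and 2.03 in CTCF.

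Families of developmental and repeated genes gave further levels. Hox genes had 13.9 in H3K4me3 and 4.02 in CTCF, with 11 of 11 tested higher in H3K4me3. Hoxc11, of the posterior Hoxc cluster, had a log2 fold change of 3.54. The 186 tested zinc-finger genes had 170 higher in H3K4me3 and 1 higher in CTCF, near the share over all starts, and densities of 10.7 in H3K4me3 and 3.02 in CTCF. Histone genes, whose near-identical copies can split or share reads, had 6.46 in H3K4me3 and 3.06 in CTCF, with 18 of 26 higher in H3K4me3 and 1 higher in CTCF. Imprinted genes had 1.61 in H3K4me3 and 0.94 in CTCF.

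The single bins named here were picked from these same counts for their large fold changes or differences in level. They had to differ between the targets, so they serve as examples and do not show how far bins separate in general. The bin at chr17:71616711-71617710, at the start of Wdr43 (a ribosome-biogenesis gene), held 22, 29 and 34 H3K4me3 counts and 3, 1 and 0 CTCF counts (log2 fold change 5.67, SE 0.46, edgeR adjusted p = 6.64e-19). Bins at Ppp1r15b, Dr1, Atp5b and Vgll3 followed with log2 fold changes of 4.80 to 5.23. In the other direction, chr13:41571836-41572835, in the long noncoding RNA gene Gm32184, held 2, 1 and 1 H3K4me3 counts and 46, 46 and 48 CTCF counts (log2 fold change -3.64). A bin inside the keratin gene Krt78, chr15:101973586-101974585, held 2, 2 and 1 H3K4me3 counts and 37, 64 and 61 CTCF counts. By difference in level, the highest distal CTCF bin was chr11:53736786-53737785, intergenic with Il5 as the nearest coding gene, with 6, 10 and 6 H3K4me3 counts and 64, 107 and 74 CTCF counts.

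Distal H3K4me3 bins, named after their values were seen, included positions in noncoding genes. In Pvt1, the long noncoding RNA gene beside Myc, chr15:62038751-62039750 held 60, 85 and 67 H3K4me3 counts and 14, 24 and 19 CTCF counts (log2 fold change 3.34). An intergenic bin nearest to Ppara, chr15:85672656-85673655, held 46, 76 and 69 H3K4me3 counts and 7, 8 and 6 CTCF counts (log2 fold change 4.59). The bin chr4:88936641-88937640 in the noncoding gene Gm49890 had one of 3.21. Distal bins lie over 2 kb from every coding gene end and from all 32619 promoters. Noncoding genes without a promoter in that set were not considered.

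Both targets were densest on chromosome 11 and sparsest on chromosome X, though not to the same degree. Relative to its length, chromosome 11 held 1.77 ± 0.04 times the genome mean in H3K4me3 and 1.63 ± 0.02 times in CTCF, and chromosome X 0.40 ± 0.02 in H3K4me3 and 0.45 ± 0.01 in CTCF (SD, n = 3 each). The ratio of H3K4me3 to CTCF was highest on chromosome 11 (1.09) and lowest on chromosome X (0.88). Copy number and signal cannot be told apart in these counts.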

How the data were processed

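The authors deposited unscaled counts in 1 kb bins. The submitters' processing notes name bcl2fastq, HISAT2 2.1.0, deepTools 3.3.1 and GRCm38. For duplicates, multiply mapped reads and the assignment of reads to antibodies, the handling was not given in the sources used here. Libraries were matched by name to their titles; 4 columns matched no sample, and 6 samples were not analysed here. Autosomes and X were kept, without 9 bins whose density was above 50 times the mean in all groups, which left 2631630 bins. Library size was the total over these bins. No molecular identifiers are given, so intervals cover counting error only.

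Starts of 17273 coding genes came from RefSeq promoters (GRCm38.p6), using the outermost of several. A further 3921 genes were placed at the end with more H3K27ac counts, which can be the downstream end, and 433 ties were left out. Of the 21194 windows, 13.2% share bins with another gene. edgeR 4.0.16's quasi-likelihood test (R 4.3.3, filterByExpr, adjusted p below 0.05) compared the 6 libraries. A run on simulated counts, in which most starts were unchanged, does not cover data where most starts are called. Shares were compared by exact permutation, and DESeq2 1.42.0 was an alternative. Levels are CPM of the library total, or density, the counts per bin divided by the library's genome mean.

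Named genes are the 8 largest fold changes and the 8 largest CPM differences in each direction among called starts with no overlap of the targets, 20 counts or more per library of the higher target (15 for CTCF), over 3 counts in the lower and no shared bins, plus up to 4 members of each of 26 gene lists and every member of 3 of them, of which the text gives a part; withheld items are not reported here. The libraries, lists and motif were chosen with earlier results of these data known.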

Additional observations from a re-analysis of the deposited data

How the results depend on the processing

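At starts, DESeq2 called 2956, with 1236 higher in H3K4me3 and 1720 in CTCF, and edgeR with TMM factors 3935, with 1835 higher in H3K4me3 and 2100 in CTCF. Over bins, DESeq2 called 6313 (1357 higher in H3K4me3 and 4956 in CTCF; 108 distal ones higher in H3K4me3), and TMM 9491 (4170 and 5321; 316 distal ones higher in H3K4me3). Both methods centre the tested features on 0, so genes below the median changed sign, given as DESeq2 then TMM: Actn3 (-0.13, -0.13), Chrnb1 (-0.72, -0.70), Ctcf (-0.063, -0.037), Des (-1.02, -0.99), Esco1 (-1.36, -1.34), Gata3 (-0.74, -0.72), H2ac6 (-0.089, -0.090), H3c15 (-0.085, -0.060), Id2 (-0.052, -0.034), Impact (-0.18, -0.17), Kmt2b (-1.08, -1.05), LOC102634078 (-0.052, -0.051), Mef2a (-0.020, -0.00057), Men1 (-0.77, -0.78), Nkx2-5 (-0.21, -0.18), Pds5a (-0.083, -0.037), Smc3 (-0.71, -0.71), Stag1 (-0.92, -0.91), Stag2 (-0.37, -0.38), Syn1 (-0.29, -0.28) and Zrsr1 (-0.49, -0.44). A further 35 named genes lost their call with DESeq2 and 19 with TMM. Abr turned to 0.038 with both gene ends and 1.83 with the start richest in H3K27ac, an alternative chosen, like TMM over 10 kb windows, after seeing the data. Starts higher in CTCF numbered 679 of 10431 tested with both gene ends, 699 of 10316 in 2.5 kb windows and 709 of 20556 with no filter on low counts. With only 10 counts over the 6 libraries asked for, 34727 of 243743 tested bins were called, with a median log2 fold change of -0.35. Of those called, 21286 were higher in H3K4me3 and 13441 in CTCF, and among distal bins 3144 and 11313. A filter on the summed count gave 7057 bins higher in H3K4me3, 605 of them distal. With no filter at starts, list medians relative to all starts changed sign for immediate-early genes (0.96), CTCF and cohesin genes (1.33), Hox genes (-0.23), histones (0.31) and zinc-finger genes (0.68). Leaving out each library in turn gave 15934 to 23573 bins called, 1931 to 7972 higher in CTCF, and distal ones of 1268 to 1653 higher in H3K4me3 and 1526 to 6500 higher in CTCF, the low ends without a CTCF library and the high ends without an H3K4me3 library. List medians relative to all starts then ran from -0.57 to 0.33 for contractile genes, -0.15 to 0.28 for CTCF and cohesin genes and -0.15 to 0.14 for Hox genes. Chrna1, Chrnb1, Des, Esco1 and Olfr225 each lost their call without at least 1 library. The differences in shares kept their direction without each library, and so did the counts at starts.

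The replicate number was also fitted as a replicate block. It gave 7742 starts higher in H3K4me3 and 301 in CTCF, and 11926 and 3231 bins, and it changed no call of a named gene. The deviations of same-numbered libraries of both targets correlated at 0.0701 to 0.0729 over 10 kb windows, against -0.0452 to -0.0207 for other pairs. Each library thus correlated best with its own number, a hint from the data only, and the pairing is not stated in the labels. Depth limits the low values: a 1 kb bin holds under 1 count on average in every H3K4me3 library.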
